A study of Mus musculus with 6 samples.

Results

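Heterotrimeric G proteins and their RGS regulators were described in CD4+CD8+ (double-positive, DP) thymocytes through 10 genes: the alpha subunits Gnai2, Gnai3, Gna13 and Gnaq, the beta subunit Gnb1, the gamma subunit Gng2, and the regulators Rgs1, Rgs2, Rgs10 and Rgs16. They were chosen by gene symbol, with the knockout and wild type FPKM values of this comparison already known, so the ratios below are descriptions and support nothing by themselves. Each symbol had 1 model among the 37867 in the table. The samples were 3 sorted DP populations from mir181a1/b1 Knockout mice (KO) and 3 from Wild type mice (WT), all C57bl6, sorted on CD4 and CD8 to a stated purity above 95%. The labels give no age and leave unsaid if each population is from its own mouse. They name no Cre, no other allele and no treatment for either genotype, and do not describe how the deletion was made.

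A heterotrimeric G protein couples a receptor at the cell surface to enzymes inside the cell: the receptor loads the alpha subunit with GTP, and alpha and the paired beta and gamma subunits then act separately. RGS proteins speed up GTP hydrolysis by alpha and so shorten the signal. In the thymus, chemokine receptors such as CXCR4 and CCR9 act through Gi proteins to guide thymocytes between cortex and medulla.

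The microRNAs named in the knockout share 1 seed, the bases 2 to 8 that pair with a target. Their mature sequences are shown because the same 7 letters were then looked for in the 10 genes. Both are from RefSeq on GRCm38.p6, plus strand of chromosome 1, with the seed in capitals; miR-181a lies at chr1:137966468-137966490 and miR-181b at chr1:137966650-137966673.
mmu-miR-181a-5p: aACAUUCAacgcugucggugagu
mmu-miR-181b-5p: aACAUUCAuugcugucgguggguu

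A match to that seed, TGAATGT on the transcript strand, stood in the 3′ UTR of 4 of the 10 genes. These 4 were Gng2, Gnaq, Rgs1 and Rgs2, and the other 6 had none. The 5 matches are shown from the GENCODE M21 reference transcripts (GRCm38), 5′ to 3′, with the match in capitals. Those of Gng2 (chr14:19872612-19872641), Rgs1 (chr1:144244582-144244611) and Rgs2 (chr1:144001421-144001450) lie on the minus strand, and both of Gnaq (chr19:16385435-16385464 and chr19:16386926-16386955) on the plus strand.
Gng2: gcaggaaaaccTGAATGTgatgtgcgcatc
Gnaq site 1: ttttggcagatTGAATGTgctgtattgata
Gnaq site 2: aagagctctgtTGAATGTcctgagtagctg
Rgs1: ttaaaaaaaatTGAATGTagttactacaca
Rgs2: gaacaggcctcTGAATGTgttcttcctcct

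The Rgs1 match was the only 1 of the 5 followed by an A. The match of Gng2 began at base 3177 of a 3′ UTR of 3248 bases, near its end, and that of Rgs2 at base 241 of 2342. The 3′ UTRs with a match were 2342 to 4069 bases long and those without one 275 to 4883 bases, the longest of them that of Gna13. Among 20650 coding genes with a 3′ UTR, 15.1% held the 7 letters. The share was 44.3% among the 1168 fitted genes with a 3′ UTR of at least 3000 bases, a length that Gng2, Gnaq and Rgs1 also reach. Over the 9017 coding genes of the GC fit described below, those with a match had a median log2 ratio, KO over WT, of 0.08 and those without one of -0.33, but they also had a median GC content of 46.5% against 50.8% and a median 3′ UTR of 2198.5 against 810 bases. With the GC and length trend taken out these medians were 0.05 and -0.01. A match is a description of letters and not a measured target site.

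Of the 10 genes, 8 were abundant enough for the authors to test, and Gng2 and Gnaq passed a q of 0.05 there, by the authors' deposited table, both higher in the KO. None of the 8 was called lower. Over all 13834 tested models, 17.1% were called, 1.79% higher and 15.3% lower in the KO. Because the genes were picked with these values known, nothing is read from their share. The table holds 1 pooled FPKM (fragments normalised to transcript length and library size) for each genotype, so no spread between populations can be given, and depth is unknown. Each error is a standard error (SE) found by dividing the log2 ratio by the test statistic of the table, and each interval is 95% on a normal scale. Whether this SE includes the spread between populations is not stated, so the intervals may be too narrow. In these bulk samples, fewer cells of a type and less RNA per cell cannot be told apart.

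**Figure D1:**
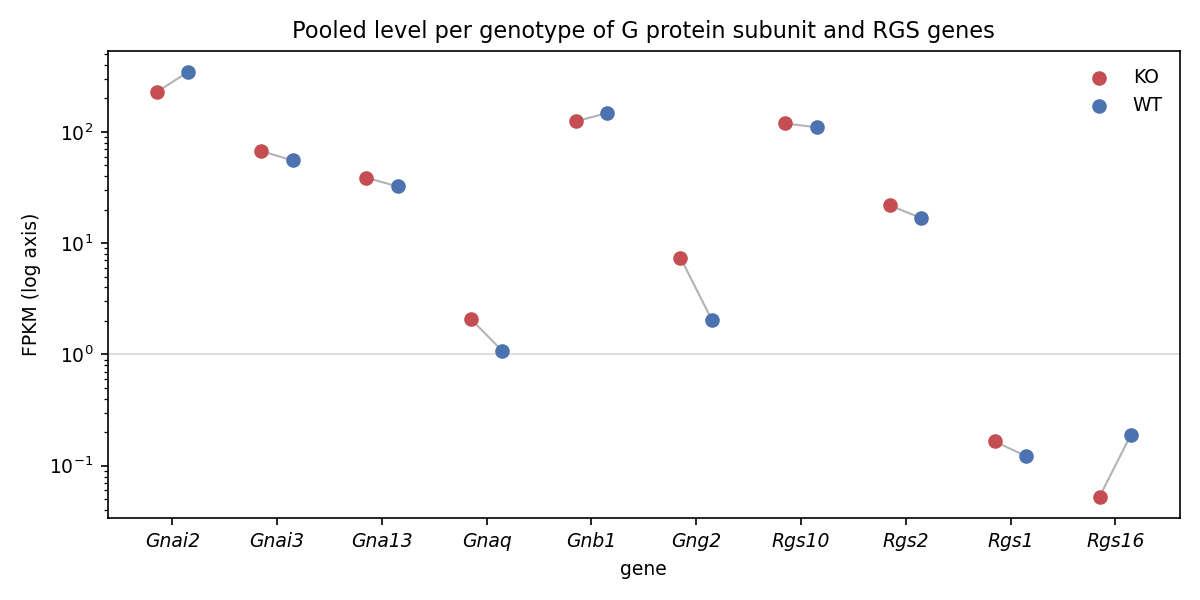
Pooled FPKM of each gene (vertical log axis) in KO (left, red) and WT (right, blue), with 1 value per genotype and no error bars because single populations were not used. The span runs from Gnai2 at 228 FPKM in KO and 346 FPKM in WT down to Rgs1 and Rgs16, which lay below 0.2 FPKM in both genotypes.

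Levels spread widely within the group. In KO the order of the FPKM levels was Gnai2, Gnb1, Rgs10, Gnai3, Gna13, Rgs2, Gng2, Gnaq, Rgs1 and Rgs16, and WT had the same order except that Rgs16 stood above Rgs1. The highest tested level was 109.6 times the lowest tested one in KO and 321 times in WT. Without values of single populations, neighbours in this order could not be compared against a spread. Gnai2 stood above 99.2% of the tested models in KO and above 99.4% in WT. Gnaq stood above 28.3% in KO and 17.8% in WT.

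Gng2 encodes a gamma subunit, the small lipid-anchored partner of beta. Its model (chr14:20691780-20796471, mm9) stood at 7.42 FPKM in KO and 2.04 FPKM in WT, 3.63-fold higher in KO. The log2 ratio was 1.86 (implied SE 0.31), with an interval of 2.40-fold to 5.51-fold, and the authors' deposited table gave q = 1.13e-07. The level stood above 51.9% of tested models in KO and above 25.6% in WT. No other model in the table overlapped the gene, while the annotation lists 1 processed copy, Gng2-ps1 on chromosome 4, whose reads could be shared.

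No other gamma gene was called. Of 12 gamma genes with a model, 6 were tested, and Gng2 was the only 1 called. Over all tested models 17.1% were called, so nothing is read from this count. Gng5 was the most abundant at 48.1 FPKM in KO and 45.1 FPKM in WT (log2 0.10, implied SE 0.28). Gngt2 stood at 32.9 FPKM in KO and 53.2 FPKM in WT (log2 -0.69, implied SE 0.34, q = 0.159 in the authors' deposited table). Gng10 and Gng12 had log2 ratios of -0.08 and 0.31. Gng2 thus made up 7.24% of the summed gamma FPKM in KO and 1.79% in WT, and Gng5 stood at 6.49 times the Gng2 level in KO and 22.1 times in WT.

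Gnb1 encodes the beta subunit with the highest level in these cells. Its model (chr4:154865472-154933635, mm9) stood at 124 FPKM in KO and 148 FPKM in WT. The log2 ratio was -0.25 (implied SE 0.26, interval -0.76 to 0.26 on the log2 scale, q = 0.613 in the authors' deposited table), so a difference was not detectable at this precision. The related Gnb2, in a model also named for Epo, fell to 32.5 FPKM in KO, against 107 FPKM in WT (log2 -1.72, implied SE 0.33, q = 1.17e-05 in the authors' deposited table). Gnb1 accordingly held 76.3% of the summed beta FPKM in KO and 56.8% in WT, and the ratio of Gnb1 to Gnb2 was 3.83 in KO and 1.38 in WT. Gnb4 stood at 5.34 FPKM in KO and 3.85 FPKM in WT and Gnb5 at 0.746 FPKM in KO and 1.41 FPKM in WT, and neither was called. The annotation lists processed copies of Gnb1 on chromosomes 8 and 14, and the sources used here do not state how reads matching several genes were counted.

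Gnai2 and Gnai3 encode the Gi alpha subunits that inhibit adenylyl cyclase and serve chemokine receptors in lymphocytes. Gnai2 (chr9:107516468-107537673, mm9) had the highest level of the 10 genes, at 228 FPKM in KO and 346 FPKM in WT. Its log2 ratio was -0.60 (implied SE 0.24), with an interval of 0.48-fold to 0.91-fold before correction for the number of models, and its q of 0.0621 from the authors' deposited table did not pass the threshold. Gnai3 (chr3:107910216-107949032, mm9) stood at 67.2 FPKM in KO and 55.5 FPKM in WT (log2 0.28, implied SE 0.22, q = 0.479 in the authors' deposited table). The paralogs thus had ratios of opposite sign, and Gnai2 stood at 3.39 times Gnai3 in KO and 6.24 times in WT. With the GC and length trend described below taken out, both log2 values were positive, 0.32 for Gnai2 and 0.06 for Gnai3. The difference between the 2 ratios was not tested. The third Gi gene, Gnai1, was listed at 0 in both genotypes.

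Gna13 encodes the alpha subunit that activates the small GTPase RhoA through the exchange factor encoded by Arhgef1. It (chr11:109216091-109262997, mm9) stood at 38.8 FPKM in KO and 32.4 FPKM in WT (log2 0.26, implied SE 0.29, q = 0.649 in the authors' deposited table). Its paralog Gna12 fell to 3.10 FPKM in KO, against 7.38 FPKM in WT (log2 -1.25, implied SE 0.32, q = 0.00165 in the authors' deposited table). Gna13 stood at 12.5 times Gna12 in KO and 4.39 times in WT.

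Gnaq encodes the Gq alpha subunit, which activates phospholipase C beta. Its model (chr19:16207320-16461943, mm9) stood at 2.08 FPKM in KO and 1.08 FPKM in WT, 1.93-fold higher in KO. The log2 ratio was 0.95 (implied SE 0.32), with an interval of 1.26-fold to 2.96-fold, and the authors' deposited table gave q = 0.0200. The other Gq-class gene above 1 FPKM, Gna11, stood at 5.35 FPKM in KO and 8.38 FPKM in WT (log2 -0.65, implied SE 0.31, q = 0.152 in the authors' deposited table). Gna11 was 2.57 times Gnaq in KO and 7.78 times in WT. Both lay far below Gnai2, Gnai3 and Gnas: Gnaq held 0.384% of the summed alpha FPKM in KO and 0.153% in WT. Gnas, the Gs alpha subunit that stimulates adenylyl cyclase, held 35.2% in each genotype, at 190.3 FPKM in KO and 247 FPKM in WT (q = 0.382 in the authors' deposited table).

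**Figure D2:**
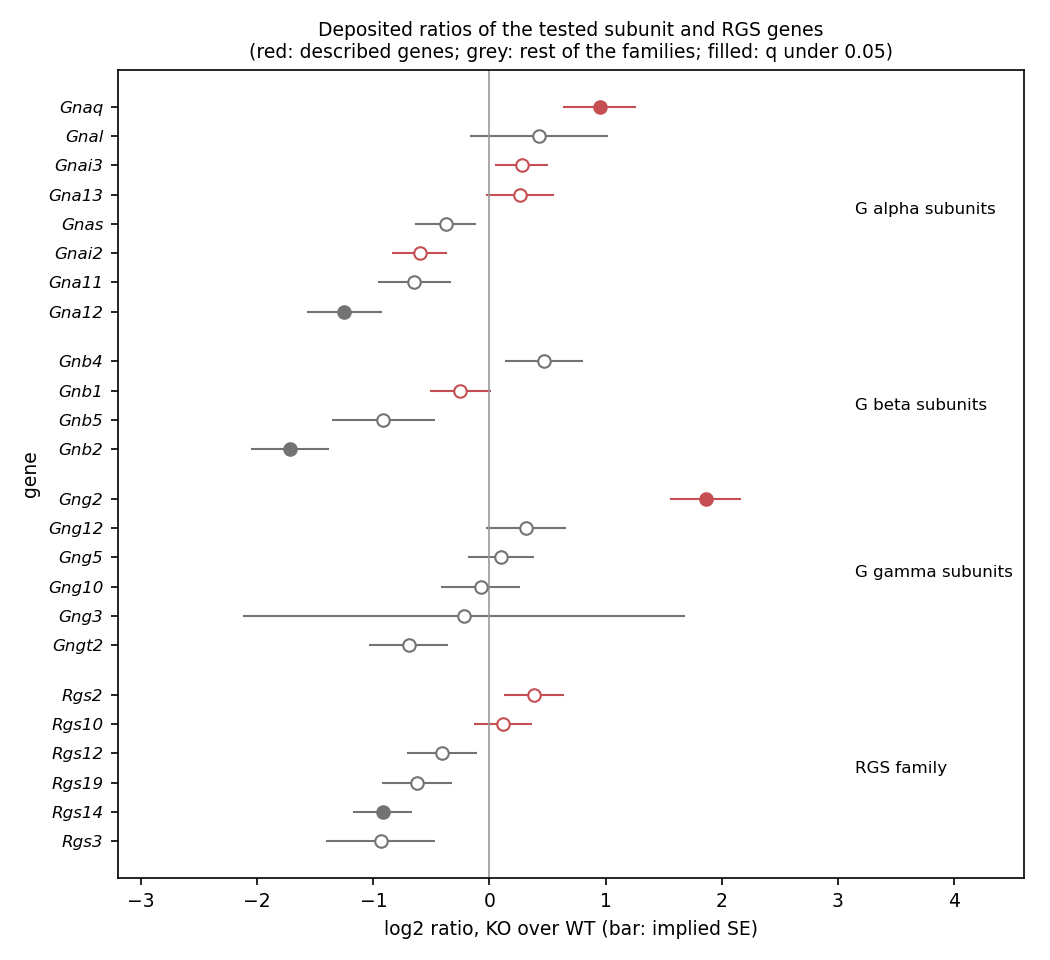
Deposited log2 ratio, KO over WT (horizontal axis), of the tested alpha, beta, gamma and RGS genes, with the implied SE as bars; red marks the genes chosen by symbol, grey the rest of their families, and filled points a q under 0.05. Gng2 and Gnaq are the filled points right of 0, and Gnb2, Gna12 and Rgs14 those left of it.

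Rgs10, a short RGS protein that acts on Gi alpha subunits, was the most abundant regulator. Its model (chr7:135515050-135561686, mm9) stood at 119 FPKM in KO and 110.03 FPKM in WT (log2 0.12, implied SE 0.25, interval 0.77-fold to 1.52-fold, q = 0.856 in the authors' deposited table). Rgs2, which prefers Gq, stood at 21.9 FPKM in KO and 16.8 FPKM in WT (chr1:145847126-145851279, mm9; log2 0.38, implied SE 0.26, q = 0.355 in the authors' deposited table). Neither passed the threshold. Rgs10 held 59.0% of the summed RGS FPKM in KO and 47.4% in WT, and Rgs2 10.8% in KO and 7.22% in WT.

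Rgs1 and Rgs16, known in activated lymphocytes as regulators of chemokine receptor signalling, were close to undetected in both genotypes. Rgs1 (chr1:146091347-146122062, mm9) stood at 0.165 FPKM in KO and 0.122 FPKM in WT. Rgs16 (chr1:155574181-155595975, mm9) stood at 0.0528 FPKM in KO and 0.191 FPKM in WT. The authors tested neither, and no fold is given at these levels. A lincRNA model overlapping Rgs16, linc-Rgs16-AS, stood at 0.139 FPKM in KO and 0.124 FPKM in WT. The TruSeq RNA kit keeps no strand information, so reads cannot be told apart where exons of Rgs16 and of this model overlap. Only the spans of the models were compared here, not their exons. Models also overlapped Rgs1, Gnb1, Rgs10 and Gna13, the highest being BC027814 over Gna13 at 2.67 FPKM in KO and 3.16 FPKM in WT. The model over Rgs1, linc-Rgs1-AS, stood at 0.00218 FPKM in KO and 0 in WT.

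Within the whole RGS family 6 of 19 genes in the table were tested, and 1 was called, about the share of 17.1% over all tested models. Rgs14, which binds Gi alpha subunits and Ras, fell to 32.5 FPKM in KO, against 61.5 FPKM in WT (log2 -0.92, implied SE 0.25, q = 0.00329 in the authors' deposited table). Rgs19 stood at 18.1 FPKM in KO and 27.8 FPKM in WT (q = 0.150 in the authors' deposited table). The ratio of Rgs10 to Rgs14 was 3.67 in KO and 1.79 in WT. The median log2 ratio of the 6 tested RGS genes was -0.52, beside -0.17 over all tested models, and turned to 0.12 once the GC and length trend described below was taken out.

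**Figure D3:**
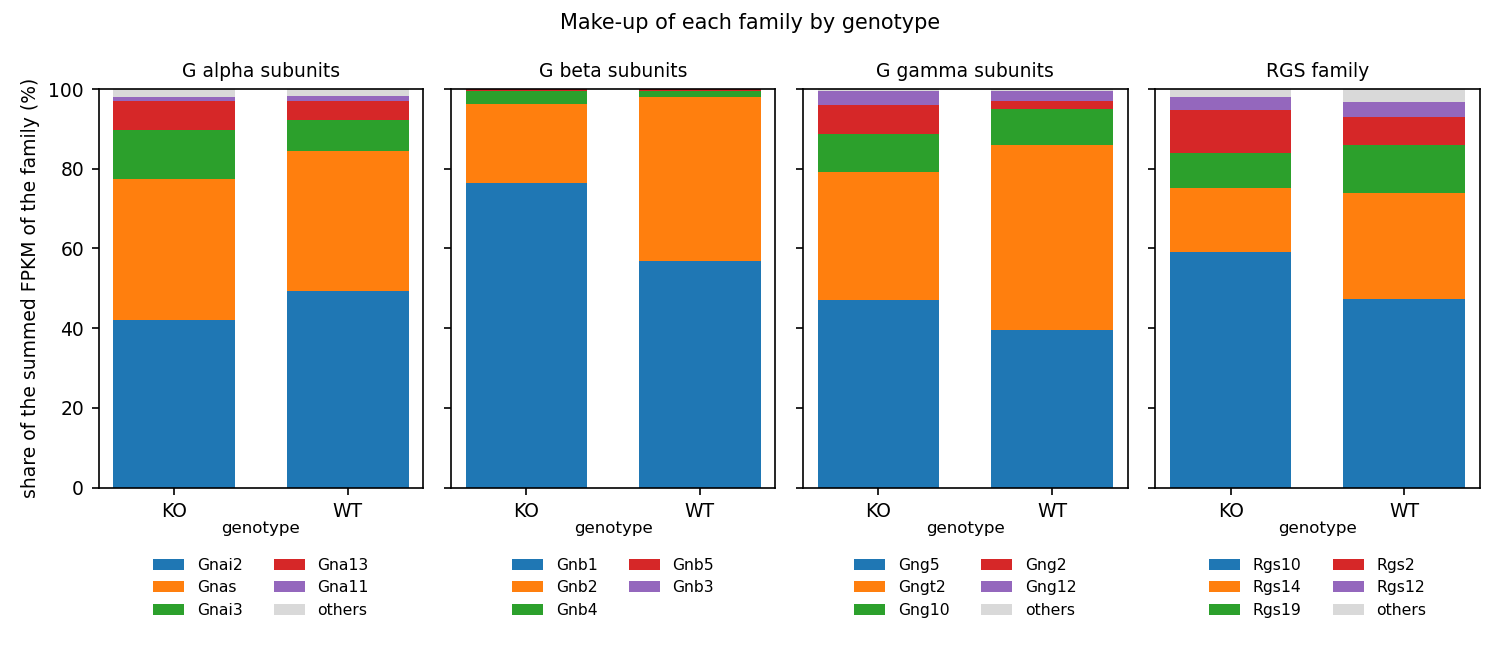
Share of the summed FPKM (vertical axis, percent) of the alpha, beta, gamma and RGS families taken by each gene in KO (left bar) and WT (right bar) of each panel, from 1 pooled value per genotype. Gnb1 holds 76.3% of the beta sum in KO and 56.8% in WT, and Gng2 7.24% of the gamma sum in KO and 1.79% in WT.

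Over the 4 families together, 24 of 52 genes in the table were tested, of which Gng2 and Gnaq rose and Gnb2, Gna12 and Rgs14 fell. Over all tested models 1.79% were called higher and 15.3% lower in the KO. The falls were about as frequent as that, and both rises are genes chosen with their values known. Nothing is therefore read from these counts. The median log2 ratio of the 24 tested genes was -0.23. It was -0.06 for 8 alpha genes, -0.58 for 4 beta genes and 0.01 for 6 gamma genes, and without the trend 0.31, -0.30 and, for the 5 gamma genes fitted, 0.10. The 8 tested genes chosen here had a median of 0.27, with 6 above 0 and 2, Gnai2 and Gnb1, below. The summed alpha FPKM was 541 in KO and 702 in WT, and the summed beta FPKM 163 in KO and 260.3 in WT. Over all models the FPKM also summed to less in KO, 297352 against 360688 in WT.

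The ratios of these genes have to be read beside their base composition. Over 9017 tested coding genes averaging 1 FPKM or more, the log2 ratio followed transcript GC content with a Spearman's rho of -0.763 across genes, which are not independent replicates. Gng2 had a transcript of 43.8% GC, in one of 10 equal groups by GC content, whose median log2 ratio was 0.18. Gnai2 had 56.7% GC, in a group with a median of -0.91. Gnb2, Gna12 and Rgs14 had 59.9%, 58.2% and 57.6% GC. The family genes set beside Gnai2, Gnb2, Gna12 and Rgs14 above had lower GC content. Gnai3 had 41.7%, Gnb1 48.1%, Gna13 46.4% and Rgs10 50.7%. Gna11 had 57.2%, against 46.9% for Gnaq. The ratios between the genes of each of these pairs carry the same limit. Whether the trend belongs to the genotype or to the libraries cannot be told apart with 1 pooled value per genotype.

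With a GC and length trend fitted over those genes taken out, Gng2 was still called higher and Gnaq was not. Of the 9017 genes, 1.86% were then called, 0.865% higher. Gng2 stood at a log2 value of 1.70, and 0.111% of the fitted genes stood above it. Its adjusted p was 1.31e-05 (Benjamini-Hochberg over all fitted genes, from a normal test on the implied SE). This value comes from the same ratio that was known when Gng2 was chosen. The p and the rank are therefore descriptions and support nothing by themselves. Gnaq moved only from 0.95 as deposited to 0.84 (adjusted p = 0.180), a shift smaller than its implied SE of 0.32. The p-values were adjusted anew over the fitted genes, of which a smaller share was called. Gnai2 turned to 0.32 (adjusted p = 0.821), and Rgs10 moved to 0.72 (adjusted p = 0.122). Gnai3, Gna13, Rgs2 and Gnb1 stood at 0.06, 0.12, 0.25 and -0.21. Of the 3 family genes that fell as deposited, Gnb2 and Gna12 stood at -0.38 and -0.18 and Rgs14 at 0.11, and none was called.

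**Figure D4:**
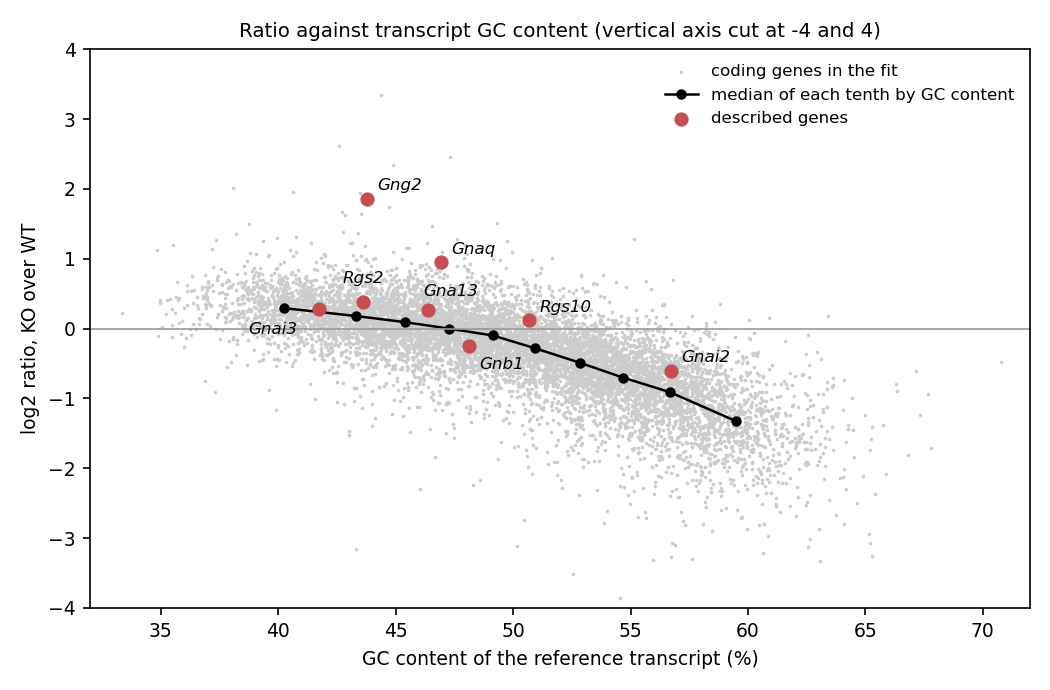
Log2 ratio, KO over WT (vertical axis), against GC content of the reference transcript (horizontal axis, percent) for 9017 coding genes (grey), the medians of 10 equal groups by GC content (black) and the 8 tested genes chosen by symbol (red). Gng2 at 43.8% GC stands far above the black line and Gnai2 at 56.7% GC stands above it although its ratio is negative.

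The 2 genes called higher differed in their promoters. Promoter sequence, 250 bases before to 50 after the start site, was given by RefSeq (GRCm38.p6) for 8 of the 10 genes, without Gnai2 and Rgs1. The promoter of Gng2 had 44.7% GC and 5 CG dinucleotides, while the other 7 ranged from 59.3% to 76.7% GC and from 21 to 40 CG dinucleotides. Of 27025 promoters, 21.7% had a lower GC content than that of Gng2 and 96.3% a lower one than that of Gnaq. The pair is shown with each CG in capitals, Gng2 from chr14:19976644-19976943 on the minus strand and Gnaq from chr19:16132434-16132733 on the plus strand. Among all promoters, the median number of CG dinucleotides in this window was 7.
Gng2: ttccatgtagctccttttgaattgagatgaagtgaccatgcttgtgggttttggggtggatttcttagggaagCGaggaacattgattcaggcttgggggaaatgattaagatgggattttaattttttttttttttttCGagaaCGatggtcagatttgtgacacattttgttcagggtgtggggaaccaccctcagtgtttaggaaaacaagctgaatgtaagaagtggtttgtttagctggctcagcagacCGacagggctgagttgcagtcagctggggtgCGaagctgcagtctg
Gnaq: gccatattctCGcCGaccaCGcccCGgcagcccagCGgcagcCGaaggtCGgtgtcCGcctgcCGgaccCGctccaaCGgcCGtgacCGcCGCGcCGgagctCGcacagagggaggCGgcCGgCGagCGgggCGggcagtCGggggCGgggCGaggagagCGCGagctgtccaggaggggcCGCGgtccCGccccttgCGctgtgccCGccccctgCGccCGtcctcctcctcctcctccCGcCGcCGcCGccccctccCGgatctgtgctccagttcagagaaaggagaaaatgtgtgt

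The chromosome that carries the microRNA genes also carries 10 RGS models. No model in the table is named for the microRNAs, so the deletion could not be checked through them. A model named AK076660 and CS444488 (chr1:139794044-139874930, mm9) stood at 156 FPKM in KO and 3.35 FPKM in WT, and its place relative to the microRNA genes was not determined here, since their coordinates are on another build. Rgs2 starts 5.97 Mb beyond the end of that model, and Rgs2, Rgs13, Rgs1 and Rgs18 lie together within 775 kb. Rgs2 was the only tested RGS model of the 10 on this chromosome. The highest of the other 9, Rgs16 in WT, stood at 0.191 FPKM.

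Genes that act with these subunits were called lower about as often as the 15.3% of all tested models, so the counts say nothing particular of them. Among modulators, 2 of 8 tested genes fell: Gpsm3, which holds Gi alpha in its GDP form and had the highest mean of both genotypes in the list, to 74.0 FPKM in KO, against 173 FPKM in WT (q = 0.000116 in the authors' deposited table), and Ric8, a chaperone of alpha subunits, to 12.3 FPKM in KO, against 21.1 FPKM in WT (q = 0.0278 in the authors' deposited table). Among receptor kinases and arrestins, 1 of 5 fell, the kinase gene Grk6, to 37.5 FPKM in KO, against 64.3 FPKM in WT (q = 0.0136 in the authors' deposited table). Adrbk1, the kinase gene with the highest level, stood at 102 FPKM in KO and 148 FPKM in WT (q = 0.111 in the authors' deposited table). Among 17 tested effectors, 2 fell. The cyclase gene Adcy6 stood at 18.8 FPKM in KO and 39.6 FPKM in WT (q = 0.000382 in the authors' deposited table), and Arhgef1, the RhoA exchange factor downstream of Gna13, at 98.7 FPKM in KO and 225 FPKM in WT (q = 0.00052 in the authors' deposited table). No gene of these 3 lists rose. With the GC and length trend taken out, none of the 5 was called, with log2 values of 0.18 for Gpsm3, -0.13 for Ric8, 0.21 for Grk6, -0.45 for Adcy6 and 0.16 for Arhgef1. The median log2 ratios of the modulators, of the kinases and arrestins and of the effectors were -0.29, -0.39 and -0.16 as deposited. Without the trend they were -0.06, 0.53 and 0.31, so that the medians of the kinases and arrestins and of the effectors turned sign. For the kinases and arrestins the value without the trend covers only the 4 genes fitted.

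The cells carried the markers of the DP stage. The 12 DP markers, of which Cd3d and Aqp11 fell, with Cd4, Cd8a and Rag1 among them, stood between 72.3 and 1241 FPKM in KO and between 134 and 1683 FPKM in WT. Of 25 markers of B cells, macrophages and granulocytes, dendritic cells, erythroid cells and thymic epithelium with a model, all but Cd79b (15.7 FPKM in KO and 20.1 FPKM in WT) stood at or below 1.02 FPKM in KO and 2.11 FPKM in WT, and Krt14 was at 0 in both. The 1.02 and 2.11 FPKM are those of Itgam, a myeloid marker that was called lower in the KO (q = 0.0413 in the authors' deposited table). Among 5 double-negative markers Il2ra rose to 29.4 FPKM in KO, against 2.89 FPKM in WT, and Ptcra fell to 9.59 FPKM in KO, against 26.1 FPKM in WT. Cd44, higher in KO, and Kit, lower in KO, were not called, and Hes1 was not tested. The list sum was 43.2 in KO and 32.7 in WT, and was higher in KO only through Il2ra. Of the markers of mature single-positive cells, Ccr7 stood at 3.20 FPKM in KO and 3.04 FPKM in WT and Klf2 at 0.948 FPKM in KO and 0.924 FPKM in WT, and neither was called. The part of other thymocyte stages in the ratios of the G protein and RGS genes was not tested.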

How the data were processed

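RNA of 6 sorted samples, 3 KO and 3 WT, was compared through 1 table. Per the labels' protocols, the RNA came from Trizol or RNeasy extraction and went into TruSeq RNA libraries. Which sample had which extraction is not stated. Per the submitters' processing notes, reads were aligned to mm9 with TopHat2. The sources used here do not name a tool for counting and testing. The authors deposited 1 FPKM per genotype, a log2 ratio, a test statistic, a p-value and a q-value. Deposited ratios were turned to KO over WT, and the implied SE is the log2 ratio divided by the statistic. The deposited q-values matched Benjamini-Hochberg values recomputed over the 13834 models with status OK (largest difference 1.89e-06). Called means a q under 0.05.

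The limma test foreseen for values per sample was not run, because the deposited table pools the samples. How the authors' test modelled the spread between populations is not stated, so the p-values may measure technical spread only. GC content, length and 3′ UTRs came from 1 GENCODE M21 transcript per gene (principal isoform first, then support level, then length). Transcripts over 1.2 times the span of the model were left out. The trend was fitted with statsmodels 0.14.6 as a robust regression on cubic splines with 5 pieces each. The fit was also run on simulated data with a smooth trend and known noise. That setting cannot show whether the implied SE holds for these samples. Whether the FPKM were corrected for base composition is not stated. The genes and lists were chosen with earlier results of these data known. In the other lists, called genes (at most 4 per direction, by smallest p) and the gene with the highest mean were named. Gngt2, Gng10, Gng12, Gnb4, Gnb5, Gnai1, Gnas, Gna11, Rgs19 and Cxcr4 were added after their values were seen. The list of mature single-positive markers is given in part, and 1 result from it is not reported here.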

Additional observations from a re-analysis of the deposited data

How the results depend on the processing

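Under 5 alternatives (centring on the median of the tested models, upper quartile scaling, a pseudocount of 1, all models of a symbol summed, and removal of the GC and length trend) Gng2 and Gnaq kept a positive log2 value, from 1.47 to 2.14 for Gng2 and from 0.57 to 1.22 for Gnaq. Only trend removal could have turned these signs. Centring and upper quartile scaling raised all log2 ratios by a constant, and a pseudocount keeps the order of KO and WT. Summing changed nothing, since each symbol had 1 model. The number of the 10 genes called higher was 2 as deposited, 1 with a q under 0.01 (Gng2), 2 among models with a mean of at least 1 FPKM, and 1 with the GC and length trend taken out (Gng2), and none was called lower in any of these. The FPKM minimum could not change the count, since Gng2 and Gnaq had means of 4.73 and 1.58 FPKM. Among genes that were not called, upper quartile scaling put Gnb1 at 0.02, and trend removal put Gnai2 at 0.32, both against a negative deposited value. The change for Gnb1 is the constant of the scaling. That for Gnai2 is the trend value subtracted, -0.92. The cause of the trend was not tested. A q under 0.01 left 2 of 3 genes called higher and 7 of 9 called lower over the 8 lists, and with the FPKM minimum the counts were again 3 and 9. No paired analysis was possible because the deposited table pools the samples of each genotype, and for the same reason no replicate was left out. Rgs1 and Rgs16 were not tested by the authors, and at their levels no difference could be read. The depth is unknown.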

Other observations

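Receptors that use these G proteins in T lineage cells were called about as often as the 17.1% of all tested models. Of 12 tested receptor genes, Gpr174, a receptor for lysophosphatidylserine, rose to 8.43 FPKM in KO, against 3.66 FPKM in WT (2.30-fold higher, implied SE 0.31 on the log2 scale, q = 0.00182 in the authors' deposited table), and the chemokine receptor gene Ccr4 fell to 6.58 FPKM in KO, against 14.7 FPKM in WT (log2 -1.16, implied SE 0.31, q = 0.00202 in the authors' deposited table). Ccr9, the most abundant of them, stood at 579 FPKM in KO and 511 FPKM in WT (q = 0.698 in the authors' deposited table), and Cxcr4 at 168 FPKM in KO and 214 FPKM in WT (q = 0.323 in the authors' deposited table). With the GC and length trend taken out, Ccr4 was still called at -1.18 (adjusted p = 0.0118) and Gpr174, at 0.82, was not (adjusted p = 0.196). Gnas, not called as deposited, was called higher only after that removal, at 0.92 (adjusted p = 0.0281), with a transcript of 60.2% GC.

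The nearest tested models with a gene name on either side of the genes called higher were not called, and these were looked up after the values were seen. Models without a name were left out. Beside Gng2, 2700060E02Rik stood at 10.1 FPKM in KO and 12.5 FPKM in WT (log2 -0.31) and 1810063B07Rik at 1.70 FPKM in KO and 2.73 FPKM in WT (log2 -0.68). Beside Gnaq, Cep78 stood at 3.41 FPKM in KO and 4.38 FPKM in WT (log2 -0.36), and Vps13a at 18.5 FPKM in KO and 9.72 FPKM in WT (log2 0.93, q = 0.0816 in the authors' deposited table).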
